A study of Homo sapiens with 12 samples.

Results

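MG63 osteosarcoma cells given siRNA against LARP4B (siLARP4B) were compared with MG63 cells given a non-targeting siRNA (siControl), gene by gene, on fragment counts. The comparison rests on 4 of the 12 libraries of the series, 2 for each group. MG63 is an established human osteosarcoma line, labelled as wild type in genotype. Every group used here was transfected with 10 nM siRNA by the lipid reagent Lipofectamine RNAiMAX in medium free of antibiotics, RNA was taken at 72 h, and poly(A) RNA was sequenced. Further groups with 2 libraries each are used where stated: MG63 cells given siRNA against LARP4A (siLARP4A, the product of the gene listed as LARP4), and PC3 prostate carcinoma cells given siControl or siLARP4B. The series' design text speaks of 2 biological replicates, each analysed in duplicate. Whether the 2 libraries of a group are those replicates or the duplicates is unclear. The number and sequence of the siRNAs for each target are not given in the sources used here, so an effect of losing LARP4B and an effect of the siRNA itself on other transcripts cannot be told apart.

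For each gene symbol with a model on chromosomes 1 to 22 or X, 1 transcript model was used, the one whose fragments summed highest across the series. This gave 28163 symbols, of which 16065 passed edgeR's expression filter and were tested. FPKM, the fragment count scaled to the length of the model and the size of the library, is used for levels. A gene is called changed where edgeR's quasi-likelihood F-test gave a Benjamini-Hochberg adjusted p under 0.05, and each adjusted p below is from that test over all 16065 genes. Fold changes are on the log2 scale of edgeR's scaled counts, siLARP4B minus siControl unless another pair is named.

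LARP4B is a cytoplasmic RNA-binding protein of the La-related family that associates with poly(A)-binding protein and with ribosomal proteins and is known for raising the stability and translation of mRNAs. The largest set of genes that moved below belongs to the interferon response. In that pathway, receptors such as RIG-I (listed as DDX58) and MDA5 (IFIH1) detect double-stranded or unusual RNA and signal through MAVS to induce interferon. Secreted interferon then acts through JAK kinases on STAT transcription factors and IRF9, which bind a short DNA element in the promoters of antiviral genes and raise their transcription.

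The 4 libraries held 18094000 to 19596000 fragments, within the 16950000 to 24865000 of the series. Replicates correlated at a Pearson r of 0.9936 for siControl and 0.9924 for siLARP4B on the log2 scale across genes, which are not independent. Chi-square per degree of freedom between replicates, near 1 for counting error alone, was 2.14 for siControl and 6.09 for siLARP4B, so the siLARP4B libraries differed more from each other. Of the 8145 genes that averaged 5 FPKM or more with siControl or siLARP4B, 102 differed by 0.5 or more (log2) between the siLARP4B libraries and 64 between the siControl libraries. The summed FPKM of 10 mesenchymal markers was 5760 to 6196 in the 4 libraries, and VIM, the mesenchymal intermediate filament, was at 2981, 2964, 2803 and 2631 FPKM. Epithelial markers summed to 72.4 and 71.5 FPKM with siControl and to 56.3 and 54.6 with siLARP4B, nearly all from KRT8, KRT18 and KRT19, while EPCAM, CDH1 and ESRP1 had at most 2 fragments in any of the 4 libraries. The endothelial markers summed to 4.13 and 3.77 FPKM with siControl and to 2.64 and 2.26 with siLARP4B, and no blood cell marker passed the filter. As these are bulk samples, fewer cells in a given state and less RNA per cell cannot be told apart.

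LARP4B itself lies on chromosome 10 at 806914 to 931705, minus strand, and was at 6.64 and 6.77 FPKM in the siControl libraries and at 1.89 and 2.20 in the siLARP4B libraries. The groups did not overlap, and 30.5% of the mean siControl level remained (log2 fold change -1.70, SE 0.0718, adjusted p 5.6e-10). In PC3 the same siRNA took LARP4B from 7.02 and 7.18 to 1.35 and 1.26 FPKM. The log2 fall was smaller in MG63 than in PC3 by 0.75 (adjusted p 0.00013). LARP4, which encodes the related protein LARP4A, went from 8.18 and 8.50 to 10.6 and 11.5 FPKM (log2 0.43, adjusted p 8.8e-05), and that change exceeded the one in PC3 by 0.46 (adjusted p 0.0012).

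In all, 2715 genes were called higher with siLARP4B, 16.9% of those tested, and 2523 lower, 15.7%. The median over all tested genes was -0.0026. Among those called, 187 rose and 272 fell at least 2-fold. Most of these were genes of low level, since the 8145 genes above held 47 that rose and 59 that fell at least 2-fold. Those 8145 genes held 2106 called higher and 1635 called lower in all. Against siLARP4A in the same line, 3400 genes were higher with siLARP4B, 21.2%, and 3270 lower, 20.4%. The siLARP4B change was more positive in MG63 than in PC3 for 2218 genes, 13.8%, and more negative for 1827, 11.4%.

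**Figure D1:**
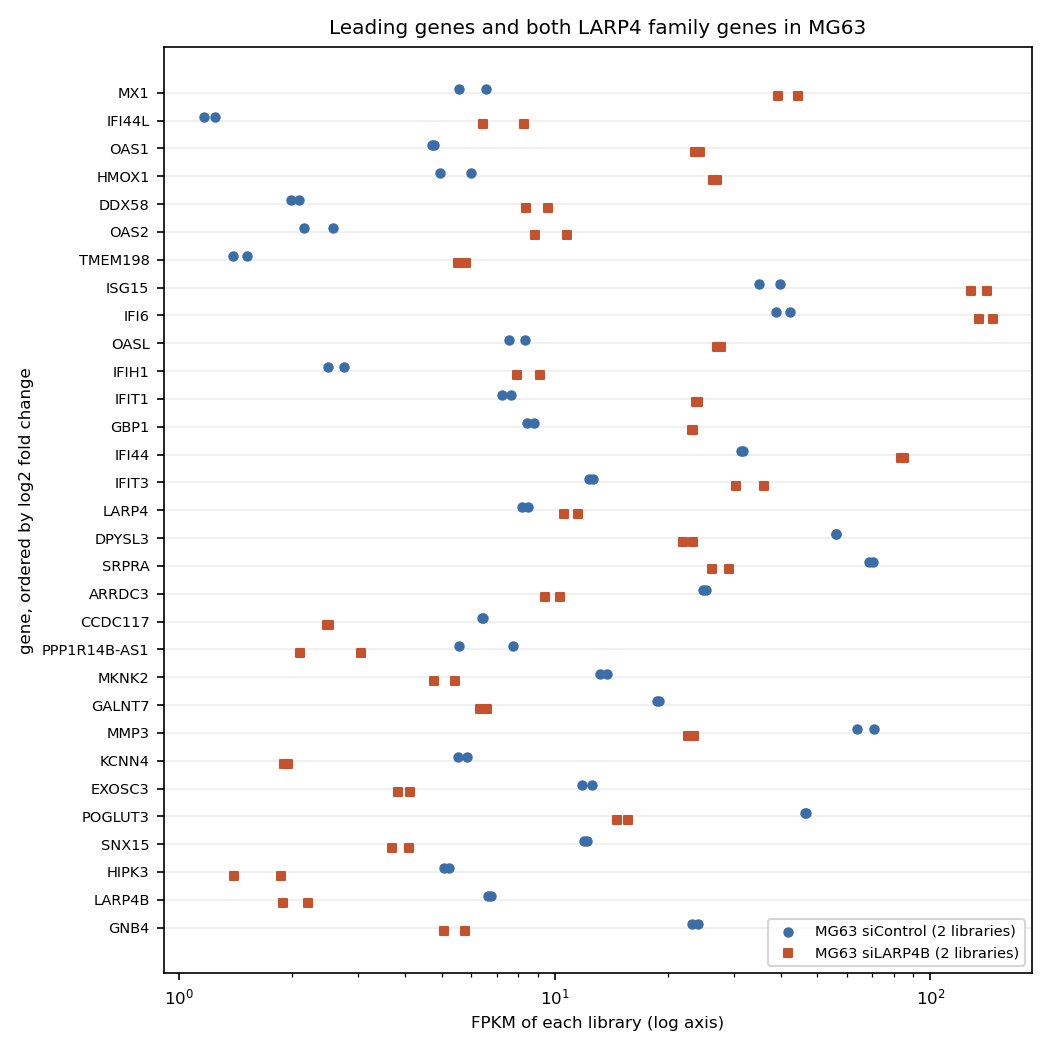
FPKM (log axis) of each MG63 siControl library (circles) and each MG63 siLARP4B library (squares) for LARP4 and the 15 genes with the highest and the 15 with the lowest log2 fold change under the naming rule, LARP4B among the lowest, ordered by fold change. The 2 groups do not overlap for any gene shown, which the rule requires for the 30 leading genes; MX1 goes from 5.58 to 6.56 up to 39.3 to 44.4 FPKM and GNB4 from 23.2 to 24.0 down to 5.07 to 5.78.

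Genes of the interferon response made up most of the genes that rose most. Of the 15 genes with the highest fold changes at 5 FPKM or more in either group, 13 were antiviral effectors or RNA sensors, the others being HMOX1 and TMEM198. A list of 64 antiviral effectors had 63 members tested, of which 47 (74.6%) rose and 1 fell, against 16.9% and 15.7% of all tested genes, with a median log2 fold change of 0.91 and 30 members up at least 2-fold. The list was written with earlier results of these data known, so its count is a description. With genes below 5 FPKM left out, fewer of its members are tested and 31 were called higher. Of the 8145 genes at 5 FPKM or more in either group, the main fit called 2106 higher. TRIM5, a capsid-binding restriction factor, fell (10.7 and 10.6 to 7.67 and 7.59 FPKM, log2 -0.46, adjusted p 2.4e-05).

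The effectors differ in what they act on. MX1, a dynamin-like GTPase that traps incoming viral nucleocapsids, was at 6.56 and 5.58 FPKM with siControl and at 39.3 and 44.4 with siLARP4B (log2 2.80, SE 0.15, adjusted p 4.5e-09), a 6.98-fold rise. The oligoadenylate synthetases make a small messenger that triggers RNA cleavage. Of these, OAS1 went from 4.78 and 4.72 to 23.6 and 24.4 FPKM (log2 2.35, SE 0.108, adjusted p 8.7e-10). OAS2 went from 2.57 and 2.15 to 8.88 and 10.8 FPKM (log2 2.08), and OAS3 from 15.4 and 15.8 to 36.6 and 43.1 (log2 1.37). OASL, the family member without synthetase activity, went from 8.35 and 7.54 to 27.0 and 27.7 FPKM (log2 1.80, adjusted p 4.9e-10).

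ISG15, a ubiquitin-like modifier, was among the most abundant of them and went from 39.8 and 34.9 to 128 and 142 FPKM (log2 1.87, SE 0.082, adjusted p 6.7e-10). USP18, which removes ISG15 from proteins and dampens receptor signalling, went from 2.53 and 2.31 to 6.21 and 6.60 FPKM (log2 1.42, adjusted p 6.8e-06). IFIT1, which binds mRNA lacking cap methylation, went from 7.23 and 7.65 to 23.7 and 24.1 FPKM (log2 1.70, adjusted p 9.1e-10). Its partner IFIT3 was at 12.6 and 12.3 against 30.4 and 36.0 FPKM (log2 1.43). IFI6 went from 42.2 and 38.8 to 135 and 146 FPKM (log2 1.81, adjusted p 3.6e-09). The neighbouring genes IFI44L and IFI44 on chromosome 1 both rose, IFI44L from 1.25 and 1.16 to 6.44 and 8.29 FPKM (log2 2.63) and IFI44 from 31.4 and 31.7 to 83.6 and 85.1 (log2 1.44). Both GBP1 and GBP2, guanylate-binding GTPases, rose as well, GBP1 from 8.46 and 8.80 to 23.3 and 23.2 FPKM (log2 1.45, adjusted p 2.2e-09). In each of these genes both siLARP4B libraries lay above both siControl libraries.

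BST2 and IFITM1 act at the membrane. BST2 (tetherin), which holds budding virions at the cell surface, was the most abundant of those named here at 163 and 153 FPKM with siControl and reached 296 and 283 (log2 0.89, adjusted p 4.8e-06). IFITM1 went from 58.5 and 54.7 to 133 and 127 FPKM (log2 1.22, adjusted p 1.3e-06). RSAD2 (viperin) and the chemokine CXCL10 also rose, on few fragments: RSAD2 had 35 and 32 against 214 and 235 (log2 2.71), and CXCL10, which overlaps ART3 on the other strand, had 14 and 8 against 60 and 75 (log2 2.57). IFI27 had 54 and 21 against 337 and 191 (log2 2.77) and has models at more than 1 locus. TNFSF10 was called on 4 and 1 fragments against none with siControl (adjusted p 0.038). That call was lost without siControl replicate 1 or 2 (edgeR adjusted p 0.14 for each) or siLARP4B replicate 1 (0.29).

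Promoters of the leading genes are shown because the interferon-activated complex of STAT2 and IRF9 is known to act through a promoter element. The core searched was GAAANNGAA, on both strands, in the 250 bases before the start in RefSeq (GRCh38.p14). It is in 7.06% of 27195 promoters and in 5.53% of the tested genes' promoters. Of the 15 highest genes, 11 have a promoter in the table and 8 of these (72.7%) hold the core. Of the 15 lowest, LARP4B among them, 13 have such an entry and 1 (7.69%) holds the core, EXOSC3. Among the antiviral effectors it is in 29 of 47 (61.7%), among genes up at least 2-fold in 23 of 136 (16.9%) and among all genes called higher in 6.1%. A match is a description and not a site, and matches can overlap. The 120 bases before the start are printed 5′ to 3′ on the gene's strand, with matches on either strand in capitals, for 4 genes that rose and for EXOSC3, which fell.
ISG15 (chr1:1013377-1013496, plus strand): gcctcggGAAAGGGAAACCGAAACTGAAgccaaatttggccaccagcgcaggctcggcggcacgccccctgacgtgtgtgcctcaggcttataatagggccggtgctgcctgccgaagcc
IFIT1 (chr10:89392503-89392622, plus strand): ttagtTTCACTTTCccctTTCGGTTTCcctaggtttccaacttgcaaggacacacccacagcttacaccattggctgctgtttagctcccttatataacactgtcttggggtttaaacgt
IFI6 (chr1:27672193-27672312, minus strand): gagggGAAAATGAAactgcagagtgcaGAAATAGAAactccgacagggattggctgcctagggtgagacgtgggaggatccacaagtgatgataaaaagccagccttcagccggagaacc
IFI44L (chr1:78620328-78620447, plus strand): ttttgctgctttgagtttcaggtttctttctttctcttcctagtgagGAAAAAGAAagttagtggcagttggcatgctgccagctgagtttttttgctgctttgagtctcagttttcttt
EXOSC3 (chr9:37785093-37785212, minus strand): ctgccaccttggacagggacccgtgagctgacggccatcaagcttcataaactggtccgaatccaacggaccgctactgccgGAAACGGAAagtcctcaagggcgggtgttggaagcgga

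In the ISG15 promoter 3 matches overlap in 1 run near the far end of the 120 bases printed. IFIT1 holds 2 on the opposite strand. MX1 and OAS1 have a promoter entry without the core in the 250 bases searched.

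Upstream of the effectors, among 25 tested genes of nucleic acid sensing, 12 (48%) rose and 4 (16%) fell, with a median of 0.20. The share that rose compares with 16.9% of all genes, and the share that fell with 15.7%. DDX58 went from 2.09 and 1.99 to 8.40 and 9.61 FPKM (log2 2.16, SE 0.106, adjusted p 1.7e-09), and IFIH1 from 2.48 and 2.75 to 7.92 and 9.16 (log2 1.72, adjusted p 4.5e-08). SAMHD1, which depletes nucleotides, rose from 4.28 and 3.90 to 10.3 and 11.3 FPKM (log2 1.42). The RNA-activated kinase PKR (EIF2AK2) rose by 0.45 and the editing enzyme ADAR by 0.51. The 4 that fell were the adaptors STING1 (39.3 and 37.5 to 27.4 and 23.8 FPKM, log2 -0.56, adjusted p 1.1e-05), MAVS (-0.25) and TICAM1 (-0.46), and the kinase TBK1 (7.92 and 8.89 to 6.03 and 5.98 FPKM, log2 -0.47). DHX58, the related helicase LGP2, was at 4.35 and 3.64 against 4.27 and 3.21 FPKM and did not pass (adjusted p 0.81).

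Interferon transcripts were at the limit of detection in these libraries. Of 14 interferon genes, IFNE alone passed the filter and was not called (2.74 and 1.95 against 1.52 and 1.65 FPKM, adjusted p 0.14), and 6 had no fragment in any of the 4 libraries. IFNB1 had 0 and 2 fragments with siControl and 5 and 3 with siLARP4B, too few for a ratio. Of 19 tested receptors and signalling genes, 8 rose and 3 fell, and 5 rose without siControl replicate 1, without siControl replicate 2 or without siLARP4B replicate 2. In the main fit 42.1% of these 19 rose and 15.8% fell, against 16.9% and 15.7% of all genes. STAT2 went from 5.53 and 5.04 to 8.91 and 8.90 FPKM (log2 0.77, adjusted p 2.5e-06) and IRF9 from 7.82 and 6.97 to 15.3 and 15.7 FPKM (log2 1.09, adjusted p 2.3e-06). The receptor chains IFNAR1 (log2 0.10) and IFNAR2 (0.06) did not pass. IRF2, which competes with activating factors at the same element, fell from 12.7 and 12.3 to 7.71 and 7.71 FPKM (log2 -0.68, adjusted p 5.9e-06).

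Antigen presentation genes gave 8 higher and 2 lower of 17 tested, or 4 higher without siControl replicate 2 or siLARP4B replicate 1. In the main fit 47.1% of these 17 rose and 11.8% fell, against 16.9% and 15.7% of all genes. The proteasome activators PSME1 (62.6 and 63.1 to 84.8 and 81.1 FPKM, log2 0.42) and PSME2 (84.6 and 87.6 to 109 and 108, log2 0.35) rose, while B2M, the class I light chain, did not pass (164 and 159 against 193 and 181 FPKM, adjusted p 0.15). For genes of the major histocompatibility region most fragments lie on alternate contigs of the build. HLA-B had 12, 8, 63 and 18 fragments on chromosome 6 and 6073, 5630, 8243 and 7015 on alternate contigs in siControl 1 and 2 and siLARP4B 1 and 2. With both added, HLA-B changed by 0.35 (adjusted p 0.012) in place of 1.97, and HLA-C by 0.43 (adjusted p 7.2e-05) in place of 0.82. TAP2 was called lower (-1.79, adjusted p 0.045) on 70 and 11 against 12 and 12 fragments, but was at 0.14 without siControl replicate 1. The TAP2 call was also lost without siLARP4B replicate 1 (-1.76, edgeR adjusted p 0.15) or 2 (-1.82, 0.13), and with alternate contigs added (-0.79, adjusted p 0.1).

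The 2 siRNAs differed on most of these genes. Values against the shared siControl libraries were 1.05 with siLARP4A and 2.80 with siLARP4B for MX1, 0.18 and 1.87 for ISG15, 0.08 and 1.70 for IFIT1, and 1.11 and 1.45 for GBP1. Tested directly, siLARP4B exceeded siLARP4A by 1.76 for MX1 (adjusted p 1.1e-07), 1.69 for ISG15 (6.1e-10), 1.63 for IFIT1 (6.5e-10) and 0.34 for GBP1 (0.00078), each edgeR adjusted. GBP2 did not differ detectably between the siRNAs (log2 0.00, adjusted p 1). Of the 63 antiviral effectors 39 were higher and 4 lower with siLARP4B than with siLARP4A, against 21.2% and 20.4% of all genes.

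The rise was also larger in MG63 than in PC3 for many effectors. In PC3, MX1 was at 1.45 and 0.965 FPKM with siControl and at 1.81 and 2.89 with siLARP4B, and its change was smaller than in MG63 by 1.86 (adjusted p 0.00051). OAS1 differed by 1.64 (adjusted p 2.1e-06), DDX58 by 1.18 (0.00018) and IFI44L by 1.07 (0.0029), all edgeR adjusted. BST2 is an exception, with a change of 0.89 in MG63 and 1.16 in PC3 that did not differ detectably (adjusted p 0.42). In all, 30 of the 63 tested effectors had a more positive change in MG63 and 2 a more negative one, against 13.8% and 11.4% of all genes.

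**Figure D2:**
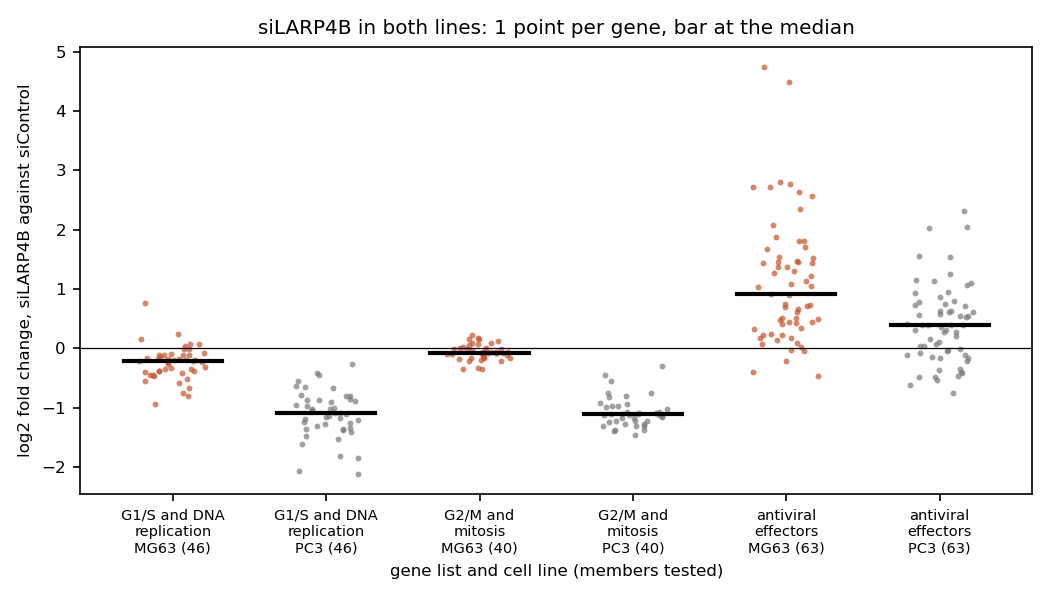
Log2 fold change of siLARP4B against siControl for every tested member of 3 gene lists in MG63 and in PC3, 1 point per gene with a bar at the median. The G1/S medians are -0.22 in MG63 and -1.08 in PC3, the G2/M medians -0.07 and -1.11, and the antiviral medians 0.91 and 0.39; the 2 antiviral points above 4 in MG63 are TNFSF10 and IDO1, with no fragment in siControl.

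HMOX1, which encodes the haem-degrading enzyme haem oxygenase-1, stood out from the interferon genes among the highest. It was at 5.97 and 4.95 FPKM with siControl and at 27.0 and 26.4 with siLARP4B (log2 2.31, SE 0.0815, adjusted p 2.2e-10), a 4.96-fold rise. In PC3 it went from 11.8 and 11.9 to 49.4 and 50.9 FPKM, and the changes did not differ detectably between lines (difference 0.24, SE 0.111, adjusted p 0.14), except without MG63 siControl replicate 1, where the difference was 0.43 (edgeR adjusted p 0.022). siLARP4B exceeded siLARP4A by 1.85 in MG63 (adjusted p 1.4e-10). HMOX1 is a target of the oxidative stress factor NRF2 and is repressed by BACH1. BACH1 fell from 8.49 and 8.94 to 5.16 and 5.09 FPKM (log2 -0.75, adjusted p 3.3e-05). Whether this fall had a part in the HMOX1 rise was not tested.

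The list of NRF2, haem and iron genes, HMOX1 included, had 8 higher and 8 lower of 38 (21.1% each, near the 16.9% and 15.7% of all genes), or 13 higher with symbols at several loci left out of the fit, with a median of 0.08. Among the classical NRF2 targets NQO1 rose (60.3 and 62.4 to 84.8 and 80.6 FPKM, log2 0.45, adjusted p 2.6e-06), as did GCLM (0.31). TXNRD1, the cytosolic thioredoxin reductase, fell from 75.5 and 76.1 to 48.2 and 48.5 FPKM (log2 -0.63, adjusted p 1.9e-08), and SQSTM1 fell by 0.43 on the log2 scale. The transferrin receptor TFRC rose from 33.5 and 35.5 to 55.0 and 62.1 FPKM (log2 0.78, adjusted p 1.7e-07), and so did the iron transporter SLC11A2 (0.54). The antioxidant response element core TGACNNNGC, searched like the element above, is in 11% of all promoters and 12.2% of the tested genes' promoters. It is in 7 of 29 (24.1%) of this list, in 9 of 47 (19.1%) of the antiviral effectors, in 18.4% of genes up at least 2-fold, in 0 of 11 of the highest genes and in 3 of 13 (23.1%) of the lowest. HMOX1 has no entry there. TMEM198, the remaining gene among the highest, went from 1.51 and 1.39 to 5.82 and 5.54 FPKM (log2 1.99) and overlaps CHPF on the other strand.

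Among the genes that fell most, GNB4, a beta subunit of heterotrimeric G proteins, was at 23.2 and 24.0 FPKM with siControl and at 5.07 and 5.78 with siLARP4B (log2 -2.10, SE 0.0932, adjusted p 6.7e-10), so 23.0% of its level remained. HIPK3, a homeodomain-interacting kinase, went from 5.24 and 5.08 to 1.40 and 1.87 FPKM (log2 -1.64, adjusted p 2.1e-08). SNX15, a sorting nexin, went from 11.96 and 12.2 to 4.09 and 3.70 FPKM (log2 -1.61, adjusted p 1.4e-08); it overlaps the readthrough gene ARL2-SNX15, which fell by 0.39 on the log2 scale. For comparison, the targeted LARP4B transcript itself stood at -1.70.

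POGLUT3, an endoplasmic reticulum O-glucosyltransferase, was more abundant and went from 46.3 and 46.6 to 14.7 and 15.6 FPKM (log2 -1.60, SE 0.0765, adjusted p 1.3e-09). EXOSC3, a cap subunit of the RNA exosome, went from 11.8 and 12.5 to 3.83 and 4.12 FPKM (log2 -1.60, adjusted p 2.4e-08). SRPRA, the alpha subunit of the signal recognition particle receptor, went from 68.7 and 70.4 to 26.2 and 29.1 FPKM (log2 -1.31, adjusted p 5.6e-10) and overlaps FAM118B on the other strand. These 3 genes act in protein glycosylation, RNA decay and protein export, respectively. GALNT7, an enzyme of mucin-type O-glycosylation, went from 19.0 and 18.7 to 6.59 and 6.33 FPKM (log2 -1.53). MKNK2, a kinase of the cap-binding protein eIF4E, went from 13.2 and 13.8 to 5.43 and 4.76 FPKM (log2 -1.38). DPYSL3, a cytoskeletal protein of the collapsin response mediator family, went from 55.9 and 56.0 to 23.3 and 21.9 FPKM (log2 -1.29, SE 0.0486, adjusted p 3e-10).

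The remaining leading genes that fell were KCNN4, MMP3, CCDC117, ARRDC3 and PPP1R14B-AS1. KCNN4, a calcium-activated potassium channel, went from 5.54 and 5.84 to 1.90 and 1.95 FPKM in MG63 (log2 -1.54) but from 33.0 and 31.3 to 55.6 and 58.1 in PC3 (log2 0.81), a difference of 2.36 (adjusted p 8.3e-08). ARRDC3, an arrestin-domain adaptor, went from 24.7 and 25.3 to 9.40 and 10.3 FPKM, and CCDC117 from 6.39 and 6.43 to 2.48 and 2.51. PPP1R14B-AS1, antisense to PPP1R14B, had 49 and 72 against 20 and 28 fragments (log2 -1.35).

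Besides LARP4B, 11 of the 14 lowest genes were also called lower with siLARP4B in PC3, 1 (KCNN4) was called higher and the others did not pass. All 15 of the highest genes were called higher in PC3. Of all genes, 23% were called higher and 20% lower there. GNB4 was at 8.06 and 8.02 FPKM with PC3 siControl and at 0.752 and 1.05 with siLARP4B, and POGLUT3 at 11.7 and 12.2 against 1.36 and 1.68. The change in MG63 was less negative by 1.08 for GNB4 (adjusted p 0.00016), 1.39 for POGLUT3 (3.6e-06), 0.71 for EXOSC3 (0.0027), 0.45 for HIPK3 (0.04) and 0.44 for SNX15 (0.037), all edgeR adjusted. The differences for HIPK3 and SNX15 were near the threshold. That for HIPK3 was lost without MG63 siControl replicate 2 (0.48, edgeR adjusted p 0.062), without MG63 siLARP4B replicate 2 (0.29, 0.18) without any PC3 library of the pair (0.065 to 0.1), and with a replicate block (0.052). That for SNX15 was lost without MG63 siControl replicate 1 (0.49, edgeR adjusted p 0.055), without MG63 siLARP4B replicate 1 (0.42, 0.09) and without any PC3 library of the pair (0.06 to 0.14). With siLARP4A the same MG63 genes stood at -0.47 for GNB4, 0.38 for HIPK3, -0.06 for POGLUT3, 0.05 for SRPRA and 0.53 for DPYSL3 against the shared siControl. Tested directly, siLARP4B minus siLARP4A was -1.63 for GNB4 (adjusted p 4e-09), -2.02 for HIPK3 (8.4e-10), -1.54 for POGLUT3 (8.4e-10) and -1.82 for DPYSL3 (1.8e-12), each edgeR adjusted.

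The families of 3 of these genes were also counted. Of 22 G protein subunits tested, 9 (40.9%) rose and 2 (9.09%) fell, against 16.9% and 15.7% of all genes, the other that fell being GNB5 (1.77 and 1.76 to 1.23 and 1.37 FPKM, log2 -0.42); without siControl replicate 2 there were 4 that rose and without siLARP4B replicate 1 there were 5. GNB1, the most abundant beta subunit, did not pass (185 and 187 against 198 and 192 FPKM, adjusted p 0.13), and GNB2 rose by 0.24. Among 8 HIPK and DYRK kinases DYRK3 fell besides HIPK3 (log2 -0.44), and DYRK2 was called higher (0.21). The DYRK2 call was lost without siControl replicate 1 (0.22) or 2 (0.21) or siLARP4B replicate 2 (0.16). Of 29 sorting nexin and retromer genes 9 (31.0%) rose and 5 (17.2%) fell, and 5 rose without siControl replicate 1, with SNX13 (-0.64) and SNX17 (-0.51) falling and SNX16 (0.72) rising.

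DNA replication genes fell by small amounts. Of 46 genes of the G1/S transition and replication, 28 (60.9%) fell and 1 rose, with a median of -0.22, against 15.7% and 16.9% of all genes. With siLARP4A, against the same siControl libraries, 36 (78.3%) were called lower, with a median of -0.37, against 12.5% of all genes. Tested directly, 18 of the 46 were higher and 5 lower with siLARP4B than with siLARP4A, against 21.2% and 20.4% of all genes. CCNE2, which drives entry into S phase, went from 14.9 and 14.5 to 7.24 and 7.97 FPKM (log2 -0.93, SE 0.0846, adjusted p 8.7e-07), and its paralogue CCNE1 was the 1 that rose (46 and 60 against 99 and 84 fragments, log2 0.76, adjusted p 0.014). The CCNE1 call was lost without siControl replicate 1 (0.62, edgeR adjusted p 0.12) or siLARP4B replicate 1 (0.67, 0.082). The replicative helicase subunit MCM3 went from 419 and 424 to 249 and 275 FPKM (log2 -0.67, adjusted p 5.2e-08). Thymidylate synthase TYMS, which overlaps ENOSF1 on the other strand, went from 82.9 and 86.2 to 47.3 and 48.4 FPKM (log2 -0.80), and the uracil glycosylase UNG fell by 0.75 on the log2 scale. The clamp PCNA was near its siControl level (130 and 133 against 114 and 122 FPKM, log2 -0.14, adjusted p 0.047), and E2F1 fell from 23.3 and 21.8 to 14.6 and 15.8 (log2 -0.55).

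Mitotic genes were called lower at close to the share of all tested genes, 17.5% against 15.7%. They were called higher less often, 5% against 16.9%. Of 40 in the list, 7 fell and 2 rose, with a median of -0.07, and the number that fell ranged from 2 without siLARP4B replicate 1 to 12 without siLARP4B replicate 2. HMMR went from 27.7 and 29.2 to 20.9 and 23.2 FPKM (log2 -0.35), AURKB fell by 0.34 and KIF20A rose by 0.23. MKI67 was at 25.6 in both siControl libraries and at 18.0 and 27.4 FPKM with siLARP4B, so the siLARP4B libraries lay on both sides (adjusted p 0.46). In PC3, 45 of 46 replication genes and 40 of 40 mitotic genes fell, against 20% of all genes. The change was less negative in MG63 than in PC3 for 45 of 46 replication genes and for 40 of 40 mitotic genes, against 13.8% of all genes; for TYMS the difference was 1.31 (adjusted p 3.3e-07) and for KIF20A 1.38 (adjusted p 6.7e-08).

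Cell cycle inhibitors and DNA damage response genes were mixed, with 7 higher and 8 lower of 30, or 5 lower without siControl replicate 1 or siLARP4B replicate 2. In the main fit 23.3% rose and 26.7% fell, against 16.9% and 15.7% of all genes. The inhibitor p27 (CDKN1B) rose from 21.4 and 22.5 to 35.7 and 33.6 FPKM (log2 0.68, adjusted p 4.1e-06), whereas p21 (CDKN1A) fell from 22.7 and 20.7 to 18.5 and 15.1 (log2 -0.35, adjusted p 0.0059). ZMAT3 fell by 0.86 and MDM2 by 0.39, and SESN2 rose by 0.70. Cyclin D1 (CCND1) did not pass, at 109 and 106 against 99.5 and 101 FPKM.

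**Figure D3:**
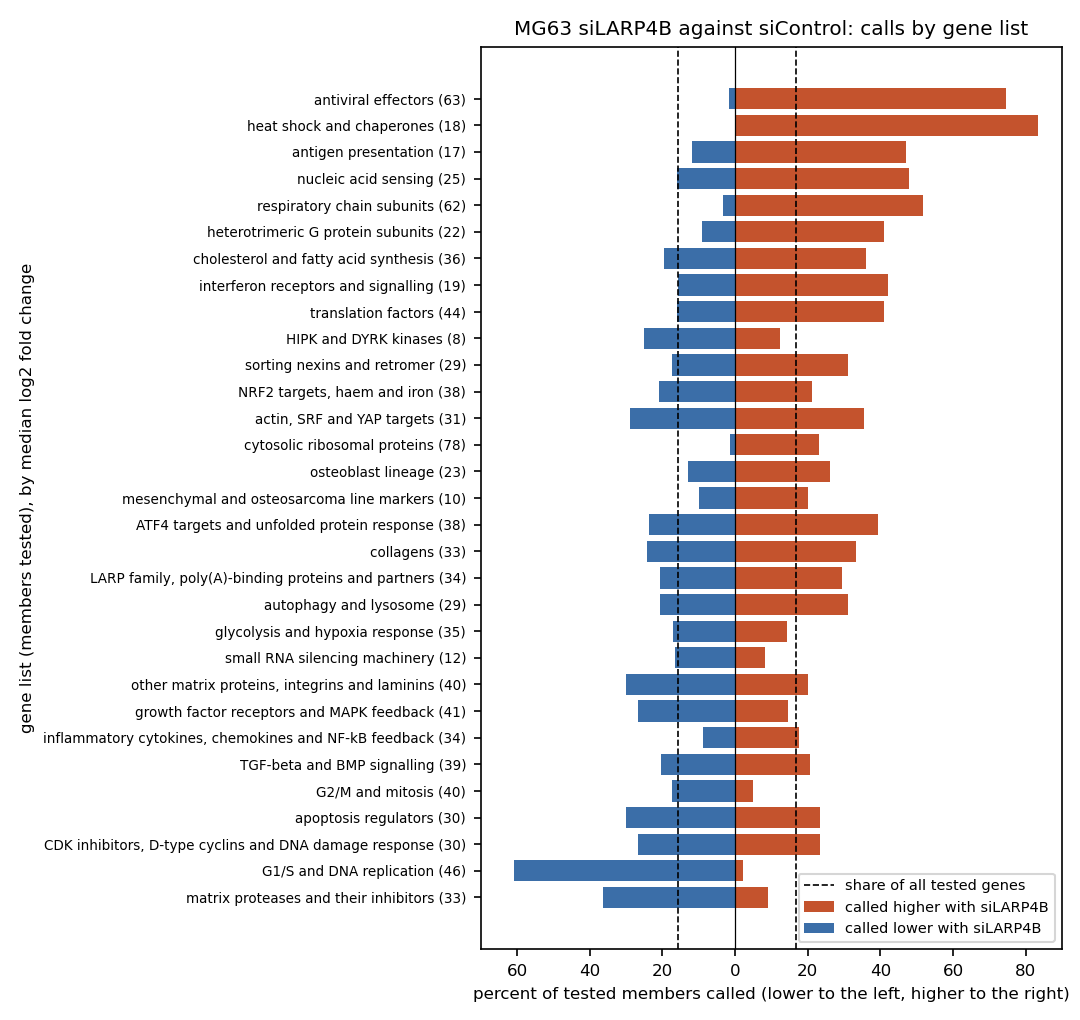
Percent of the tested members of each list of at least 8 tested genes that were called higher (right) or lower (left) with siLARP4B in MG63, ordered by the list's median log2 fold change. Dashed lines give the shares of all tested genes, 16.9% higher and 15.7% lower; antiviral effectors and chaperones stand far to the right, and G1/S genes and matrix proteases to the left.

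Chaperones and respiratory chain subunits rose by small amounts in many genes. Over all tested genes 16.9% were called higher and 15.7% lower against siControl. Of 18 heat shock genes and chaperones 15 (83.3%) rose, with a median of 0.28, and 3 did not pass (CRYAB, HSPB8 and HSF1). HSPH1, a nucleotide exchange factor of HSP70, went from 18.3 and 19.1 to 30.1 and 33.1 FPKM (log2 0.78, SE 0.0545, adjusted p 6.4e-08). The mitochondrial chaperonin pair rose together, HSPD1 from 273 and 281 to 403 and 416 FPKM (log2 0.58) and HSPE1 from 314 and 316 to 424 and 417 (log2 0.43). The abundant cytosolic chaperones moved by less, with HSPA8 at 689 and 693 against 825 and 836 FPKM (log2 0.28) and HSP90AA1 up by 0.15. CRYAB, a small heat shock protein, was at -0.36 (adjusted p 0.076).

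Of 62 respiratory chain subunits 32 (51.6%) rose and 2 (3.23%) fell, with a median of 0.17, against 16.9% and 15.7% of all genes. Fewer of them were called higher in fits with 1 library left out, which called fewer of all genes too. Subunits of complex II moved in both directions: SDHA went from 62.9 and 65.9 to 86.9 and 79.2 FPKM (log2 0.39, adjusted p 3.7e-05), SDHB and SDHD rose by 0.34 and 0.33, and SDHC fell by 0.18. COX7B of complex IV rose by 0.36 and ATP5F1A of the ATP synthase by 0.34. ATP5F1E, which overlaps the readthrough gene SLMO2-ATP5E, fell from 29.0 and 30.4 to 20.1 and 20.9 FPKM (log2 -0.52, adjusted p 4e-06).

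Both groups were set against siLARP4A directly, since the values against siControl share their control libraries. There 15 of 18 chaperones were higher and 2 lower with siLARP4B, and 46 of 62 respiratory chain subunits were higher and 2 lower, against 21.2% and 20.4% of all genes. Against siControl the chaperone medians were 0.28 for siLARP4B and -0.12 for siLARP4A, and the respiratory chain medians 0.17 and -0.12. HSPH1 was at 12.3 and 12.8 FPKM with siLARP4A and thus lay on the other side of siControl; the difference between the siRNAs was 1.35 (adjusted p 1.4e-10).

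Sterol synthesis showed the same order. Of 36 genes of cholesterol and fatty acid synthesis 13 (36.1%) rose and 7 (19.4%) fell against siControl, with a median of 0.12. Of all genes 16.9% rose and 15.7% fell. With siLARP4B 25 of the 36 were higher and 3 lower than with siLARP4A, against 21.2% and 20.4% of all genes. The sterol demethylase MSMO1 went from 34.5 and 33.9 to 56.1 and 49.7 FPKM (log2 0.65), and ACLY, which supplies cytosolic acetyl-CoA, from 84.1 and 84.4 to 126 and 118 (log2 0.55). The regulators that activate these enzymes fell, SREBF1 by 0.42 and SREBF2 by 0.19 on the log2 scale. MSMO1 exceeded its siLARP4A level by 1.28 (adjusted p 5.1e-09) and ACLY by 0.73 (8.2e-09), both edgeR adjusted. Of the glycolysis and hypoxia list 14.3% rose and 17.1% fell against siControl, near the shares of all genes. Glycolytic and hypoxia genes gave 5 higher and 6 lower of 35, counts that moved to 1 and 13 without siLARP4B replicate 1 and to 1 and 2 without siControl replicate 2; pyruvate kinase PKM fell from 1288 and 1256 to 1067 and 964 FPKM (log2 -0.31).

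**Figure D4:**
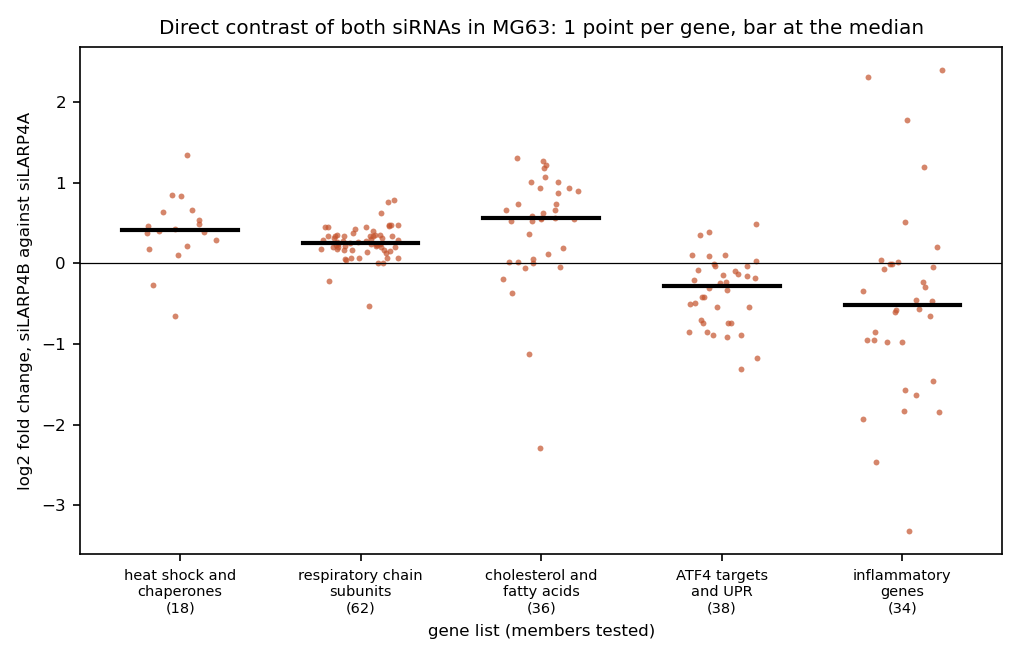
Log2 fold change of MG63 siLARP4B against MG63 siLARP4A for every tested member of 5 gene lists, 1 point per gene with a bar at the median. The medians are 0.42 for chaperones, 0.26 for respiratory chain subunits and 0.57 for cholesterol and fatty acid synthesis, and -0.28 for ATF4 targets with the unfolded protein response (UPR) and -0.52 for inflammatory genes.

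The integrated stress response and the unfolded protein response were mixed, with 15 higher and 9 lower of 38, or 9 higher without siControl replicate 2 or siLARP4B replicate 1 and 5 lower without siControl replicate 2. In the main fit 39.5% rose and 23.7% fell, against 16.9% and 15.7% of all genes. ATF5 fell from 17.1 and 17.5 to 8.08 and 8.88 FPKM (log2 -1.01, adjusted p 1e-07) and ATF6 by 0.50, and ATF4 fell by 0.16. HSPA5 (BiP), the main endoplasmic reticulum chaperone, was at 250 and 243 against 254 and 252 FPKM (adjusted p 0.24), and DDIT3 did not pass either (adjusted p 0.46). PSAT1, an ATF4 target of serine synthesis, rose by 0.45. CHAC1 rose on 14 and 18 against 32 and 35 fragments (log2 1.03), a call lost without siControl replicate 1 (0.91, edgeR adjusted p 0.053). Of the 38 genes 24 were lower and 3 higher with siLARP4B than with siLARP4A, against 20.4% and 21.2% of all genes.

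Translation was examined because LARP4B associates with the translation machinery. Of the ribosomal proteins 23.1% rose and 1.28% fell, and of the translation factors 40.9% and 15.9%. Of all genes 16.9% rose and 15.7% fell. Of 78 cytosolic ribosomal proteins 18 rose and 1 fell, with a median of 0.06, and the number that rose was 8 without siControl replicate 1 and 30 with no expression filter. Of 44 translation factors 18 rose and 7 fell, or 4 fell without either siControl library. Elongation factor EEF2 went from 562 and 572 to 731 and 689 FPKM (log2 0.34), and EIF3I and EIF3H rose by 0.39 and 0.36. EIF3D, the cap-binding subunit of the same complex, fell from 105 and 106 to 74.2 and 72.4 FPKM (log2 -0.51, adjusted p 1e-06), and EIF4A2, which holds several small nucleolar RNAs in its introns and overlaps RFC4, fell by 0.45.

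Among 34 La-related proteins, poly(A)-binding proteins and deadenylation or decapping partners, 10 (29.4%) rose and 7 (20.6%) fell, against 16.9% and 15.7% of all genes. LARP7, which binds the 7SK RNA, went from 14.1 and 13.1 to 7.02 and 7.53 FPKM (log2 -0.88, SE 0.071, adjusted p 2.6e-07), with a cluster of microRNA genes on its other strand. In PC3 its change was -0.95, which did not differ detectably (adjusted p 0.65). The deadenylase subunits PAN2 and PAN3 fell by 0.62 and 0.48 on the log2 scale, and the silencing scaffold TNRC6A rose by 0.55. PABPC1, the main cytoplasmic poly(A)-binding protein and a partner of LARP4B, rose from 597 and 608 to 676 and 679 FPKM (log2 0.19, adjusted p 0.0018). Of 12 microRNA pathway genes PRKRA (19.7 and 20.4 to 12.5 and 13.3 FPKM, log2 -0.62) and TARBP2 (-0.41) fell; XPO5 was called higher (0.17), a call lost without siControl replicate 1 (0.15, edgeR adjusted p 0.17) or 2 (0.20, 0.076) or siLARP4B replicate 2 (0.14, 0.15).

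In the extracellular matrix, chains of the same collagen moved apart. Of the collagen list 33.3% rose and 24.2% fell, against 16.9% and 15.7% of all genes. Of 33 collagen genes and their modifying enzymes 11 rose and 8 fell, or 7 and 5 without siControl replicate 1, with a median of 0.04. COL4A1, a basement membrane chain, went from 11.1 and 11.0 to 4.71 and 5.11 FPKM (log2 -1.15, SE 0.0715, adjusted p 2e-08). COL4A2, which shares its promoter region and pairs with it in the same trimer, was at 22.2 and 22.4 against 22.9 and 21.9 FPKM and did not pass (log2 0.02, SE 0.0507, adjusted p 0.77). COL4A5 fell by 0.71 and COL8A1 from 6.25 and 5.84 to 2.93 and 2.76 FPKM (log2 -1.07). The lysyl hydroxylase PLOD2 fell from 69.0 and 65.2 to 42.7 and 34.7 FPKM (log2 -0.78). COL6A1 rose from 522 and 501 to 756 and 701 FPKM (log2 0.53, adjusted p 3.2e-06). The fibrillar chains that dominate osteoblast-like cells did not pass, COL1A1 at 744 and 745 against 787 and 719 FPKM and COL1A2 at 458 and 474 against 435 and 379.

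COL4A1 was at 15.8 and 16.2 FPKM with siLARP4A, a direct difference of -1.69 (adjusted p 1.4e-10), and in PC3 it was at 3.80 and 4.17 against 0.694 and 0.857 FPKM. Of the 33 collagen genes 5 were higher and 16 lower with siLARP4B than with siLARP4A, against 21.2% and 20.4% of all genes. Of 40 other matrix proteins, integrins and laminins 12 fell and 8 rose, or 4 rose without siControl replicate 1 and 5 without siLARP4B replicate 2. In the main fit 30% of these 40 fell and 20% rose, against 15.7% and 16.9% of all genes. The integrin subunits ITGA6 (13.3 and 13.1 to 7.08 and 7.79 FPKM, log2 -0.81), ITGA2 (-0.76) and ITGA11 (-0.67) fell, as did THBS1 (log2 -0.89, adjusted p 2.7e-05). POSTN, a matricellular protein of bone, rose from 30.5 and 32.4 to 49.7 and 51.1 FPKM (log2 0.70, adjusted p 8.7e-07), and FBN1 and TNC rose by 0.46 and 0.45.

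Matrix proteases and their inhibitors gave 12 (36.4%) lower and 3 (9.09%) higher of 33, with a median of -0.22, against 15.7% and 16.9% of all genes. MMP3 (stromelysin-1), which degrades many matrix proteins, went from 70.7 and 63.7 to 23.4 and 22.6 FPKM (log2 -1.53, SE 0.0658, adjusted p 6.2e-10). An end of its locus overlaps WTAPP1 on the opposite strand. With siLARP4A it was lower still at 14.1 and 14.7 FPKM, so siLARP4B exceeded siLARP4A by 0.69 (adjusted p 1.9e-06). The neighbouring MMP1 fell by 0.45, and the membrane sheddase ADAM10 went from 18.7 and 19.4 to 11.0 and 11.3 FPKM (log2 -0.76). Inhibitors fell too: TIMP2 went from 198 and 198 to 131 and 126 FPKM (log2 -0.60) and SERPINE2 fell by 0.65. The urokinase PLAU rose from 224 and 231 to 292 and 280 FPKM (log2 0.35), and MMP2 did not pass (483 and 509 against 525 and 459).

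The 39 genes of TGF-beta and BMP signalling, which control matrix production, gave 8 higher and 8 lower. These shares, 20.5% each, were near the 16.9% and 15.7% of all genes. The feedback inhibitor PMEPA1 fell from 5.53 and 5.30 to 3.03 and 2.81 FPKM (log2 -0.87, adjusted p 6.3e-06), LTBP2 fell by 0.69 and the common mediator SMAD4 by 0.53, and the activin receptor ACVR1B rose by 0.60. Actin, SRF and YAP targets gave 11 (35.5%) higher and 9 (29.0%) lower of 31. Among contractile genes CNN2 rose from 63.2 and 65.8 to 103 and 97.4 FPKM (log2 0.65), CALD1 rose by 0.58 and ACTA2, which overlaps FAS on the other strand, by 0.74. ACTG2 rose on 2 and 4 against 40 and 35 fragments (log2 3.56). The receptor kinase AXL fell from 90.8 and 89.1 to 58.5 and 55.4 FPKM (log2 -0.64, adjusted p 2.2e-08), and CCN1 and CCN2 fell by 0.27 and 0.21.

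Growth factor and MAPK feedback genes gave 11 lower and 6 higher of 41, or 2 higher without siControl replicate 1. In the main fit 26.8% fell and 14.6% rose, against 15.7% and 16.9% of all genes. DUSP4, an ERK phosphatase, had 80 and 77 against 32 and 32 fragments (log2 -1.32, adjusted p 1.5e-05), EGR1 fell by 0.79 and JUNB by 0.40. HGF rose from 44.9 and 47.4 to 69.2 and 73.6 FPKM (log2 0.65, adjusted p 3.6e-07) and IGF1R by 0.50. PDGFA was called lower (-1.12) on 60 and 42 against 29 and 19 fragments, a call lost without siControl replicate 1 (-0.79, edgeR adjusted p 0.075).

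Inflammatory genes did not rise with the interferon genes as a group: 6 rose and 3 fell of 34, against 16.9% and 15.7% of all genes, with a median of -0.03. The chemokine CXCL1 went from 10.4 and 9.10 to 16.2 and 22.3 FPKM (log2 1.00, adjusted p 2.3e-05), LIF rose by 0.68 and TNFRSF1B by 0.76. IL1B had 141 and 122 against 60 and 77 fragments (log2 -0.97), and NFKBIA, the feedback inhibitor of NF-kB, fell from 36.3 and 40.0 to 25.5 and 26.2 FPKM (log2 -0.54, adjusted p 4.3e-05). CXCL8 did not pass (adjusted p 0.11). Against siLARP4A 17 of the 34 were lower and 4 higher, where 20.4% and 21.2% of all genes were.

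Apoptosis regulators gave 7 higher and 9 lower of 30, or 5 lower without siControl replicate 2 or siLARP4B replicate 1. In the main fit 23.3% rose and 30% fell, against 16.9% and 15.7% of all genes. The death receptor FAS, on the strand opposite ACTA2, went from 7.46 and 6.52 to 11.0 and 10.3 FPKM (log2 0.63) and APAF1 rose by 0.53. The survival factor BCL2L1 fell from 29.2 and 28.2 to 21.0 and 18.2 FPKM (log2 -0.53, adjusted p 1.3e-05), and the effectors BAK1 and BOK fell by 0.62 and 0.90. Of the autophagy and lysosome list 31.0% rose and 20.7% fell, and of the osteoblast lineage list 26.1% and 13.0%. Autophagy and lysosome genes gave 9 higher and 6 lower of 29, or 5 and 3 without siControl replicate 2, with WIPI1 up from 8.22 and 7.76 to 13.3 and 13.0 FPKM (log2 0.74) and MAP1LC3B up by 0.47. Of 23 tested osteoblast lineage genes 6 rose and 3 fell, or 1 fell without siControl replicate 1. The master factor RUNX2 had 18 and 15 against 18 and 15 fragments, ALPL did not pass (adjusted p 0.17), the vitamin D receptor VDR rose by 0.43 and IGFBP3 fell by 0.52.

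Calls varied with the length of the mRNA model. The share called lower was 11.5% in the shortest of 4 equal classes of tested genes and 15.4%, 17.0% and 18.9% in the following classes, and the share called higher was 14.5%, 17.1%, 18.7% and 17.2%. Among genes of 5 FPKM or more, classed by length in the same way, the share called lower was 15.7%, 19.4%, 21.8% and 23.4%, and the median log2 fold change in each class lay between 0.011 and 0.040. Chromosome medians ran from -0.049 on chromosome 20 to 0.045 on chromosome 13.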

How the data were processed

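Poly(A) RNA-seq of 12 libraries in 6 groups, 2 libraries in each, was used, and the contrast described here takes 4 of them. Values are the authors' deposited fragment counts per transcript model and their FPKM, the count scaled to model length and library size. Per the submitters' processing notes, the tools FastQC, HISAT2, featureCounts and edgeR and the build hg38 were used, with no role or order stated. The annotation and the strand setting of the counting are not given in the sources used here, so overlapping genes on opposite strands may share fragments. Deduplicated tables were not used here. Library totals were recovered from the count, FPKM and length columns, and values below cover counting and replicate error only. The design text speaks of 2 biological replicates, each analysed in duplicate, and leaves unclear which of these the 2 libraries of a group are. Whether they came from separate cultures is thus not known, so p-values measure the spread between these libraries, which may be technical.

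For each symbol on chromosomes 1 to 22 or X, 1 model was kept. Tests used edgeR 4.0.16 under R 4.3.3 (TMM scaling, filterByExpr by group, quasi-likelihood F-test, Benjamini-Hochberg adjustment, two-sided, threshold 0.05), with all 12 libraries in 1 fit so that they share 1 estimate of the spread. The standard error is the fold change divided by the root of the F statistic. The same fit gave siLARP4B against siLARP4A in MG63 and the difference of the siLARP4B effects between MG63 and PC3. The script was tested on simulated data. Named genes are LARP4B, LARP4 and the 15 highest and 15 lowest fold changes among called genes of at least 5 FPKM in either group, with no overlap between groups on FPKM, 1 locus and an mRNA length of at least 300 bases. In each of 35 gene lists, up to 5 called members with the largest fold changes were named, besides members of defining role that did not pass. Other list members, the differences between lines for genes beyond LARP4B, LARP4 and the 5 highest and 5 lowest, and the genes set against siLARP4A were picked after their values were seen. Some members of the lists are not reported here by name. Members and lists were chosen with earlier results of these data known.

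Alternatives were relative log expression scaling, no expression filter, a minimum of 5 FPKM, fits of 6 or 4 libraries, a replicate block, the longest model per symbol, symbols at several loci left out, DESeq2 1.42.0, limma 3.58.1 on log2(FPKM + 1) and each library left out. Adding fragments on alternate contigs, and leaving out each PC3 library for the difference between lines, were chosen after seeing the data. Promoter sequences are from RefSeq (GRCh38.p14).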

Additional observations from a re-analysis of the deposited data

Results flagged for a closer look

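The siLARP4B effect differed between MG63 and PC3 in edgeR's test of the interaction for 11 of the 12 genes for which the naming rule asked for it. Of all tested genes 13.8% had a more positive change in MG63 and 11.4% a more negative one. The genes other than LARP4B and LARP4 were picked for extreme fold changes in MG63, which itself favours a larger rise there for the highest. The differences (log2, MG63 minus PC3) were 1.86 for MX1, 1.64 for OAS1, 1.18 for DDX58 and 1.07 for IFI44L, all genes that rose in both lines. They were 1.39 for POGLUT3, 1.08 for GNB4, 0.71 for EXOSC3, 0.45 for HIPK3 and 0.44 for SNX15, genes that fell in both lines and fell less in MG63. The HIPK3 difference lost its call with a replicate block (edgeR adjusted p 0.052), and those of HIPK3 and SNX15 when single libraries were left out. The targeted LARP4B also fell less in MG63, by 0.75, and LARP4 differed by 0.46. More of LARP4B thus remained in MG63, and its part in the other differences was not tested.

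Fragments on alternate contigs, which the models on the main chromosomes do not count, averaged 7629 for HLA-B, 4578 for HLA-C, 86.5 for TAP1, 36 for HSPA1B and 28 for IRF7 in the MG63 siLARP4B libraries. With these added IRF7, a factor that amplifies interferon production, had 13 and 8 fragments with siControl and 35 and 26 with siLARP4B (log2 1.49, edgeR adjusted p 0.037), against -0.03 without them. The added fragments also gave calls for genes that were lower. IFNGR2, an interferon gamma receptor chain, had 527 and 281 against 231 and 240 fragments (log2 -0.82, edgeR adjusted p 0.015). NDUFA6 had 103 and 8 against 13 and 7 (-2.51, edgeR adjusted p 0.03), and IER3 had 10 and 14 against 2 and 6 (-1.59, edgeR adjusted p 0.032). For IFNGR2 and NDUFA6 siControl replicate 1 lay far above the other 3 libraries.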

How the results depend on the processing

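Over 15 alternative settings, LARP4B, LARP4 and the 29 other leading genes kept their direction and their call in all 465 pairs of gene and setting. The naming rule chose the leading genes from these same libraries for large changes without overlap, which favours this outcome. The count of changed genes, 5238, was 5030 with a replicate block, which changed no call of a leading gene and lost 2 of the list members. Deviations of same-numbered libraries correlated at -0.00752 to 0.0255 over all tested genes. As this includes genes with few fragments, it cannot decide whether the numbers pair the libraries. Of the counts by fold, 187 genes up at least 2-fold became 45 at 5 FPKM or more and 42 with limma, and 272 genes down became 63, 37 with limma and 175 with DESeq2. The limma values are on the log2(FPKM + 1) scale, which shrinks low genes. Leaving out 1 library gave 3586 to 4211 changed genes, fits with fewer samples. Antiviral effectors called higher were 31 at 5 FPKM or more, where fewer are tested, and respiratory chain subunits called higher were 17 to 30 when 1 library was left out. TAP2 ran from -2.60 to 0.14 when 1 library was left out. The difference between MG63 and PC3 for HIPK3 had an edgeR adjusted p of 0.052 with the block. Of the list members named by the rule, 99 of 2114 member and setting pairs lost their call, 63 of them when 1 library was left out. Where these changes have no stated reason, the cause was not tested. Depth limits genes with few fragments, such as the interferons, IL6 and RUNX2.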
